A study of Saccharomyces cerevisiae with 6 samples.

Results

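The change in RNA polymerase II (RNAP II) occupancy between alpha factor arrest and 60 min after release was measured by RNAp ChIP at 5864 of the 6144 spots of the macroarray. Inclusion required a measurable ratio of immunoprecipitated DNA (IP) to whole cell extract (WCE), with both intensities above 0, in 2 or more of the 3 replicates of each time. Each spot carries 1 PCR-amplified ORF or a control. Spots are identified by array row, column and position only, with no gene attached to these, so groups of spots are described and 4 spots are named.

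The cells were Saccharomyces cerevisiae BY4741, a wild type laboratory strain that carried the plasmid pRS316 to become Ura+, grown in SC medium. In both groups they had been held at START in G1 with 1 µg/ml alpha factor, the mating pheromone of the opposite mating type. The 0 min group was taken in that arrest, and the 60 min group after the pheromone had been washed away and the culture released into fresh medium. Flow cytometry and budding placed the arrested cells in G1 and most of the later ones in G2/M. The paper states that these methods separate S, G2 and early M less well. It also inferred the stages from its own RNAP II levels at known cell cycle genes. For the sample used at 60 min the description and the names of its hybridizations give 60 min, while the title names 30 min. The description was followed. The methods speak of separate experiments, with material for both RNAp ChIP and GRO taken from the cultures, but no source ties a replicate number to an experiment. The p-values therefore measure the spread between these hybridizations, which may in part be technical.

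RNAP II is the enzyme that transcribes protein-coding genes. ChIP with an antibody against its subunit Rpb3 recovers DNA from every polymerase crosslinked to a gene, whether it is moving, paused or backtracked, and so reports total RNAP II. Genomic run-on (GRO) labels only the RNA of polymerases that can still elongate, and so reports active RNAP II. In alpha factor arrest yeast cells transcribe the genes of the mating response, and after release these genes are shut off while the programmes of S phase and mitosis follow each other. Periodic expression through the cell cycle is known for a limited set of yeast genes.

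The 6 pairs of hybridizations behind the comparison differed in brightness. The median spot intensity ranged from 94.2 to 158 for IP and from 99.6 to 261 for WCE in the arrest, and from 208 to 556 and from 304 to 616 after release. Between 85 and 281 spots of a hybridization had an intensity of 0 and were treated as missing. The median log2 ratio of IP to WCE was -1.48, -0.33 and 0.03 in replicates 1, 2 and 3 at 0 min, and -0.52, -0.42 and -0.11 at 60 min. Each ratio was centred on this median, so all changes are relative to the median spot and a change in the total amount of bound polymerase cannot be seen. Spots are not independent replicates, and over them the centred ratios of replicates correlated at r = 0.67 to 0.74 at 0 min and at 0.74 to 0.86 at 60 min, and those of different times at 0.56 to 0.74. The log2 WCE intensities alone correlated at 0.93 between replicate 3 at 0 min and replicate 2 at 60 min, above the 0.72 to 0.83 among replicates at 0 min. The ratios of that pair correlated at 0.67. The study exchanged filters among the sampling times, and the filter of each IP and WCE hybridization is not given in the sources used here.

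From 0 to 60 min occupancy changed at 139 of the 5864 spots (2.37%; limma, Benjamini-Hochberg adjusted p below 0.05 over all 5864 spots). It rose at 51 spots (0.870%) and fell at 88 (1.50%), so that 63.3% of the changed spots fell. The spots that rose did so by a median of 1.41 on the log2 scale, or 2.66-fold, with a range of 0.78 to 3.22. Those that fell had a median change of -1.96, or 3.88-fold lower, and reached -5.15. All spots together had a median change of 0.03, and the median absolute change was 0.25, about the size of the median standard error of 0.25. In a bulk culture, more cells at a stage where a gene is transcribed and more polymerase per gene in each cell cannot be told apart.

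The 2 directions started from different levels. Spots that fell had a median log2 ratio of 1.65, 2.01 and 1.86 in the 3 replicates at 0 min, where 95% of all spots lay below 1.82, and of -0.26, -0.27 and -0.35 at 60 min. They thus went from among the most occupied spots of the arrested cells to slightly below the median of the array. Spots that rose went from medians of -0.36, -0.51 and -0.50 at 0 min to 1.17, 1.13 and 1.14 at 60 min. These levels belong to the contrast that chose the spots and are given as a description. Of the 139 spots, 137 had all 6 values, and in each of these the 3 values at 60 min lay entirely above or entirely below those at 0 min. Among all 5579 spots with 6 values, such a separation was found upward at 542 (9.72%) and downward at 483 (8.66%), so most separated spots did not pass the test.

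The fit of all 9 pairs was used for the spread, and 70 of the 139 spots (21 higher, 49 lower) were also called without each of the 6 replicates in turn. The number called was 79 without replicate 2 at 60 min, 91 without replicate 3 at 60 min, 81 when the pairs at 30 min were left out and 66 when every WCE was replaced by the mean WCE. With the mean WCE 54 of the 66 spots fell, and without the pairs at 30 min 58 of the 81 did. The mean WCE kept 10 of the 51 rises and 47 of the 88 falls. Under the time points in the sample titles, which put the 30 min description in place of 60 min, the number was 303. These held 14 of the 51 rises and 71 of the 88 falls, and 127 of the 137 spots that could be compared kept their sign.

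**Figure D1:**
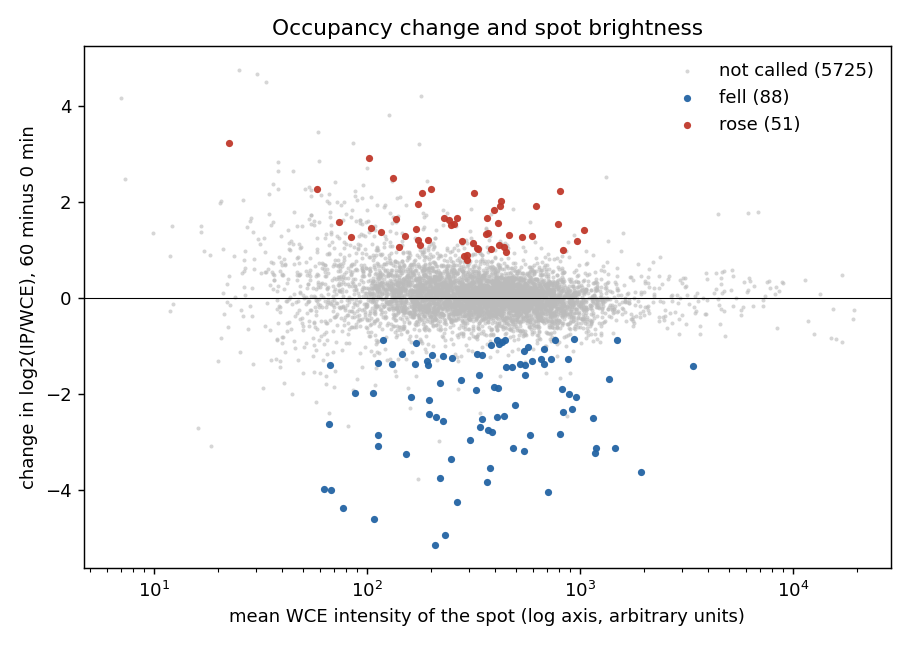
Change in log2(IP/WCE) from 0 to 60 min at each of the 5864 spots (vertical axis) against the mean WCE intensity of the spot (logarithmic horizontal axis, arbitrary units), with the 51 spots that rose in red, the 88 that fell in blue and all others in grey. The grey cloud widens toward dim spots, mostly upward, while the falls reach further than the rises at medium and high brightness.

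Large changes were called far more often downward than upward. A change of at least 2 on the log2 scale was estimated at 54 spots downward, of which 42 were called, and at 48 spots upward, of which 9 were called. Of the 39 uncalled rises of this size, 37 were among the 25% of spots with the dimmest WCE, and so were 8 of the 12 uncalled falls. The largest uncalled rise was 4.75 with a standard error of 1.89. At the other end, the smallest changes called were 0.78 upward and -0.86 downward. The residual SD had a median of 0.46 on the log2 scale in the dimmest of 4 equal groups by WCE and of 0.29, 0.26 and 0.28 in the others. Calls were nonetheless spread over these groups, with 34, 36, 37 and 32 from dimmest to brightest. The split by direction differed along this order, with 16, 15, 13 and 7 spots that rose and 18, 21, 24 and 25 that fell. The median change of all spots moved from 0.15 in the dimmest group to -0.06 in the brightest. With a smooth curve on WCE brightness taken out of each ratio, an alternative added after the data were seen, 54 spots rose and 84 fell.

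Another 47 spots fell outside the comparison because IP was above 0 in too few replicates of 1 of the times. At 34 spots the WCE was above 0 in all 6 hybridizations and IP was above 0 in 2 or more replicates at 60 min and in 1 or none at 0 min. The reverse was seen at 13 spots. An intensity of 0 does not show that polymerase was absent. The IP hybridizations at 0 min were also dimmer, with 231 to 281 spots at 0 against 141 to 265 at 60 min. The part of brightness in the 34 and 13 was not tested. No ratio can be given for them, and they are not counted among the rises and falls. In all, 280 spots were left out, 167 of them short of values at both times, 85 at 0 min only and 28 at 60 min only.

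The 4 named spots were picked among the called spots for their large changes and for no overlap between replicates at 0 and 60 min. The size, separation and adjusted p of their occupancy changes were thus conditions of the choice and are given as a description. The named spot with the steepest fall was R3 - C4 : 3. The median-centred log2 ratio there was 2.69, 3.21 and 3.00 in the 3 replicates of the arrest and -1.96, -2.26 and -1.73 at 60 min. The groups lay far apart, and the ratio was 31.0-fold lower after release (log2 change -4.95, SE 0.25, adjusted p = 6.04e-05, limma). IP intensity at this spot dropped from 705, 1868 and 1056 in the arrest to 24.9, 49.3 and 94.2 after release, although the later hybridizations were brighter as a whole. WCE was 303, 254 and 129 against 139, 315 and 338. Centred on the median spot, WCE fell as well, by -1.02 (unadjusted p = 0.00571 in limma, adjusted p = 0.799). At 0 min it ranked above 99.4% of the spots in occupancy, and at 60 min above 1.0%. At 30 min it was already at -2.50 ± 0.39 (SD, n = 3). In GRO the arrested cells gave 1.59 ± 0.30 and the released ones -4.12 ± 0.60 (change -5.71, SE 0.78, adjusted p = 0.0142, limma). Total and active polymerase thus both fell here.

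The second spot that fell, R3 - C12 : 15, had log2 ratios of 2.91, 4.32 and 3.50 at 0 min and -0.62, -0.60 and -0.80 at 60 min. The groups did not overlap, and the change was -4.25 (SE 0.61, adjusted p = 0.00684, limma). It was above 99.9% of the spots at 0 min and above 16.0% at 60 min. The replicates at 60 min were close to each other, with an SD of 0.11, whereas those at 0 min had an SD of 0.71. Replicate 1 at 0 min was dim at this spot, with an IP of 94.7 and a WCE of 35.0, against 2173 and 136 in replicate 2 and 2274 and 196 in replicate 3. The 30 min values were -2.56, 0.13 and -0.97, the first of them from an IP of 1.56 and a WCE of 14.2. In GRO it fell from 3.55 ± 0.63 to -0.34 ± 0.33, that is by -3.89 (SE 0.38, adjusted p = 0.00980, limma). With the mean WCE as denominator its occupancy change was -3.12 and no longer passed the test (adjusted p = 0.570, limma), the only alternative under which that call was lost.

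Among the spots that rose, R15 - C8 : 8 had log2 ratios of 0.45, 0.50 and 0.22 at 0 min and 2.67, 2.72 and 2.58 at 60 min. Without overlap, occupancy rose 4.80-fold (log2 change 2.26, SE 0.24, adjusted p = 0.00112, limma). Its 30 min values of -0.40, 0.52 and -0.11 lay at or near the level of the arrest. By the descriptions the rise thus came after 30 min, whereas with the times of the titles the change from 0 to 60 min was -0.39 (adjusted p = 0.380, limma). IP at this spot went from 66.0, 90.1 and 22.0 at 0 min to 1073, 669 and 3012 at 60 min. WCE rose as well, from 134, 79.9 and 18.4 to 241, 136 and 544, a centred change of 0.95 (unadjusted p = 0.0738 in limma, adjusted p = 0.799). The spot was rather dim, with a mean WCE of 200, above 27.7% of the spots, and replicate 3 at 0 min was its dimmest. GRO at the spot had means of 1.05 ± 0.87, 0.78 ± 0.03 and 3.40 ± 0.11 at the successive times (change 2.35, SE 0.39, adjusted p = 0.0226, limma), low at 30 min and high at 60 min as occupancy was.

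At the spot R9 - C17 : 8 occupancy rose while the run-on values at 0 and 60 min overlapped. Its occupancy in the arrest measured -0.25, 0.12 and -0.61, after 30 min 0.94, 1.15 and 1.20, and after 60 min 2.33, 1.58 and 2.01. The 3 time points did not overlap, and the change from 0 to 60 min was 2.22 (SE 0.25, adjusted p = 0.00168, limma). GRO was high throughout, at 2.98 ± 0.34, 2.41 ± 0.22 and 2.65 ± 0.30, and its change of -0.33 did not pass the test (SE 0.26, adjusted p = 0.575, limma). On z-scores the change in occupancy exceeded that in GRO by 2.46, a value given as a description because the spot was picked on its occupancy change. This was a bright spot, with a mean WCE of 809, above 88.7% of the others.

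**Figure D2:**
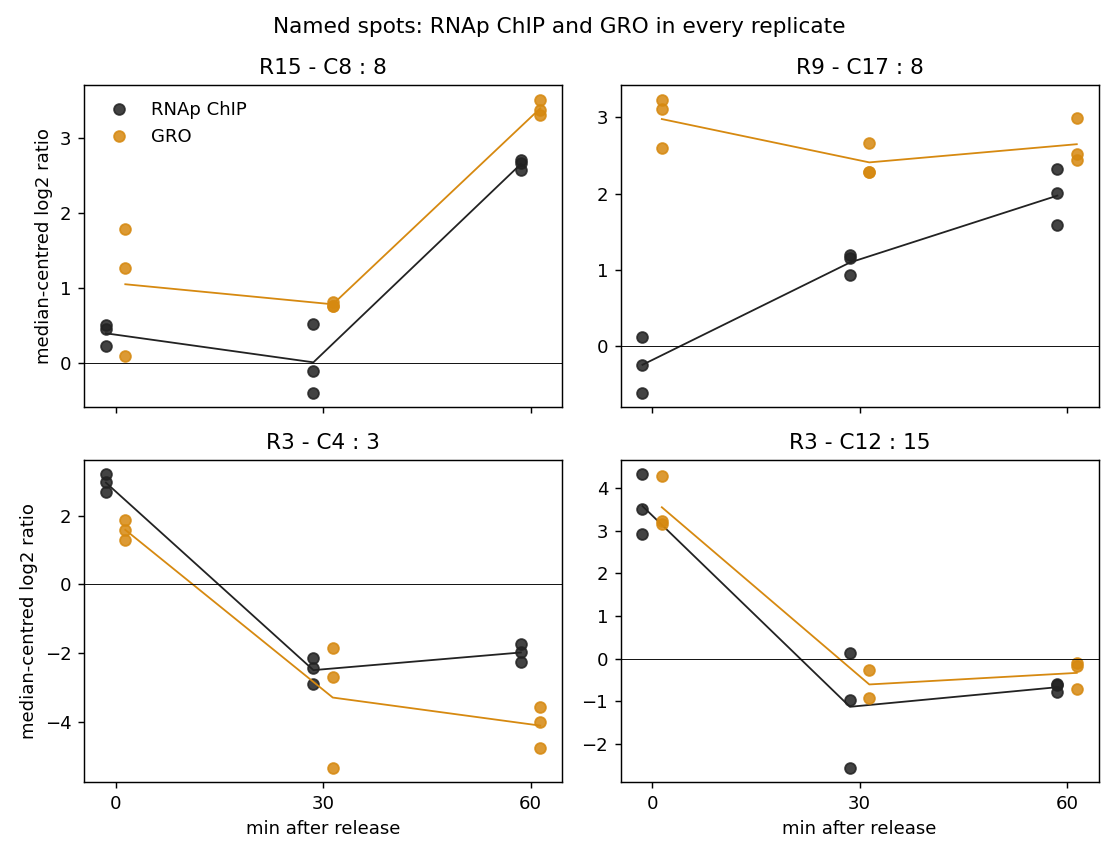
Median-centred log2 ratios of the 4 named spots at 0, 30 and 60 min in RNAp ChIP (black, IP over WCE) and GRO (orange, run-on RNA over genomic DNA), with every replicate as a point and lines through the means. In R3 - C4 : 3 and R3 - C12 : 15, with times as in the descriptions, both assays are low by 30 min, in R15 - C8 : 8 both rise between 30 and 60 min, and in R9 - C17 : 8 only the occupancy points rise, from -0.25, 0.12 and -0.61 to 2.33, 1.58 and 2.01.

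The 30 min hybridizations, which entered the fit for its spread only, show where the changed spots stood midway. Their values are levels set beside those at 0 and 60 min, which chose the spots. Spots that fell had medians of -0.34, -0.19 and -0.34 in the 3 replicates at 30 min, near the -0.26, -0.27 and -0.35 of 60 min. At 81 of the 88 more than 50% of the change had taken place by 30 min, and at 50 of the 88 the mean at 30 min was below that at 60 min. Spots that rose had medians of 0.25, 0.27 and 0.24 at 30 min, between the 2 other times. More than 50% of their change had taken place by 30 min at 21 of 51 spots, the mean at 30 min exceeded that at 60 min at 3, and it was below that at 0 min at 8. The median share of the change reached by 30 min was 104% for falls and 41.7% for rises. Over the 5858 spots with a value at 30 min this share was 71.7%. Of these, 3339 had more than 50% of their change by 30 min, and 2422 were beyond their 60 min mean. The 0 and 60 min values that chose the spots also enter these shares, so the shares are a description. With the times of the descriptions, falls were in this sense mostly complete by 30 min and rises mostly were not. With the times of the titles the values at 30 and 60 min exchange places, and occupancy at the spots that rose would be highest at 30 min, so this order rests on the descriptions.

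**Figure D3:**
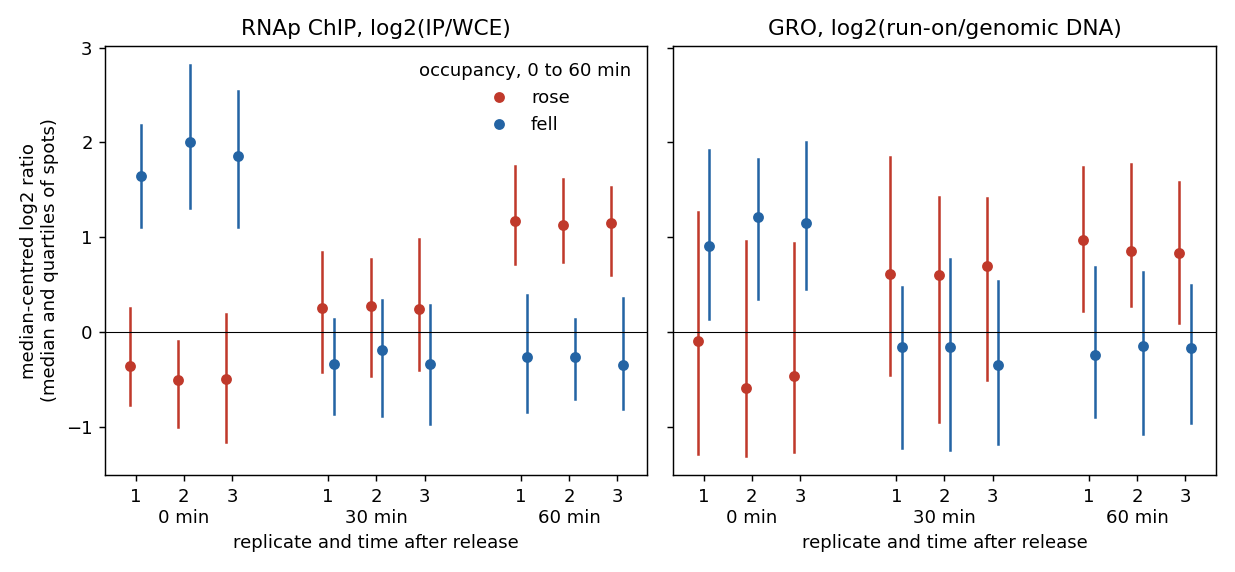
Median and quartiles of the log2 ratio over the spots whose occupancy rose (red) or fell (blue) from 0 to 60 min, for every replicate at 0, 30 and 60 min in RNAp ChIP (left) and GRO (right). In RNAp ChIP the blue medians drop from 1.65 to 2.01 at 0 min to between -0.34 and -0.19 at 30 min and stay there, while the red medians climb in 2 steps to between 1.13 and 1.17.

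The IP and WCE intensities are the values that the ratio, and so the choice of the 139 spots, was made from, and their changes at these spots are given as a description. When the IP intensity was tested on its own, 64 of 5864 spots changed (1.09%), 13 upward and 51 downward, and 54 of them were among the 139. The WCE intensity on its own changed at 0 spots (0%) by limma, the one test run, with 325 spots (5.54%) at an unadjusted p below 0.05. Among the 139 spots, 19 had such an unadjusted p for WCE (13.7%). The centred IP intensity moved in the direction of the ratio at all 51 rises and all 88 falls, by a median of 1.48 and -2.08. Over all spots it moved in the direction of the ratio at 69.0%. The median WCE change was 0.01 and -0.02 in the 2 groups. The IP part was the larger in absolute size at 129 of the 139 spots (92.8%), against 58.1% of all spots. Single intensities varied more between replicates than ratios did, with a median residual SD of 0.48 for IP and 0.46 for WCE against 0.30 for the ratio. The IP count moved with the replicates, to 29 without replicate 2 at 0 min and to 28, 27 and 28 without replicate 1, 2 or 3 at 60 min. Without replicate 2 at 0 min 1 spot changed in WCE.

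**Figure D4:**
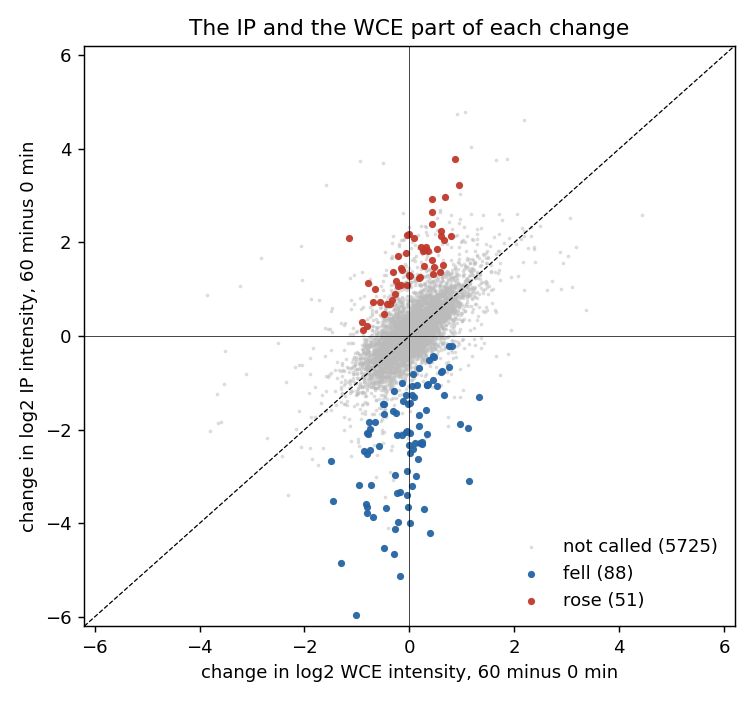
Change in centred log2 IP intensity (vertical axis) against that in centred log2 WCE intensity (horizontal axis) from 0 to 60 min, with spots that rose in red, spots that fell in blue and all others in grey, and a dashed line where both are equal. The spots that rose and fell had median IP changes of 1.48 and -2.08 and median WCE changes of 0.01 and -0.02.

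Run-on signal, measured on other hybridizations of RNA and genomic DNA but possibly from the same cultures, moved in the same direction at most of these spots. GRO was measured at 49 of the 51 spots that rose and at 87 of the 88 that fell. It was higher at 60 than at 0 min at 39 of the 49 and lower at 77 of the 87, and over all 5719 spots measured in both assays it was higher at 47.9%. The median GRO change was 0.96 at spots that rose, -1.10 at spots that fell and -0.03 over all these spots. GRO rose past the threshold at 14 of the 49, where 0.605% of 5781 spots did so, and fell past it at 29 of the 87, where 1.73% did so. At none of the 136 spots did GRO change past the threshold in the direction opposite to occupancy, and 1 had an unadjusted p below 0.05 in that direction. Over all 5719 spots, 358 had such an unadjusted p (limma) in the direction opposite to occupancy and 592 in the same direction. In a fit blocked by replicate number in both assays, 19 spots were called in both in the same direction in place of 43. Leaving out 1 GRO replicate gave from 8 (without replicate 2 at 60 min) to 31, with 14 and 10 without replicates 1 and 2 at 0 min and 20 and 10 without replicates 1 and 3 at 60 min. The median GRO change at spots that rose was 0.55 when replicate 2 of RNAp ChIP at 0 min was left out and 1.48 when replicate 3 at 60 min was, since the set of spots then differed.

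The GRO levels can be set beside those of occupancy. At spots that fell, the median GRO log2 ratio went from 1.15 in the arrest to -0.20 after 30 min and -0.20 after 60 min, so here too the level of 60 min was reached by 30 min. At spots that rose it was -0.26, 0.60 and 0.89, so that most of the GRO rise lay before 30 min. Occupancy there had medians of -0.39, 0.17 and 1.19. The spots were chosen on occupancy at 0 and 60 min and not on GRO. The shares of the rise reached by 30 min can therefore not be compared between the assays. The occupancy order also rests on the descriptions, since the titles exchange its values at 30 and 60 min. In both assays the falling spots began above the array median and ended just below it.

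At 30 of the 136 changed spots measured in both assays, the change in occupancy differed from that in GRO on z-scores within each hybridization (limma's interaction test), where 0.717% of all 5719 spots did. Because these spots were chosen on their occupancy change, which is one side of this difference, the 30 are given as a description. Of these, 24 were spots whose occupancy fell, and at each of the 24 occupancy fell more than GRO, with median log2 changes of -2.42 and -0.59. GRO was lower at 60 min at 18 of the 24. The 6 others were spots whose occupancy rose, and at 5 of them occupancy rose relative to GRO. The number was 9 on median-centred log2 ratios and 18 when blocked by replicate number, so the count depended on both choices.

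**Figure D5:**
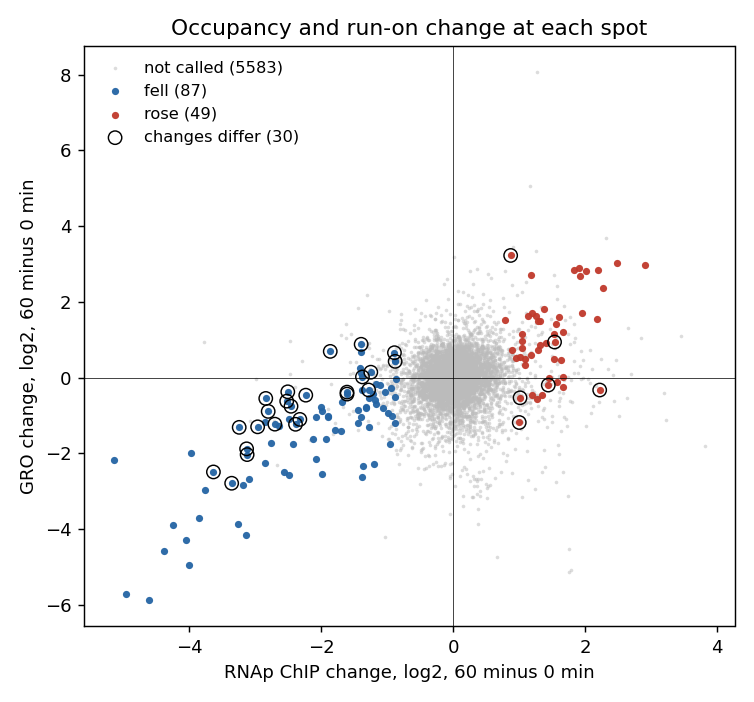
GRO change (vertical axis, log2) against RNAp ChIP change (horizontal axis, log2) from 0 to 60 min at the 5719 spots measured in both assays, with the 49 spots whose occupancy rose in red, the 87 whose occupancy fell in blue and all others in grey. Circles mark the 30 coloured spots whose changes differed between the assays on z-scores, 24 of them blue spots above the course of the others.

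Changed spots were also described by their levels at 30 min, which did not enter the contrast. Occupancy at 30 min did enter the spread on which the calls rest, so the counts by its level are a description only. By the level of occupancy at 30 min, the lowest of 4 equal groups of spots held 40 of the falls and the other groups 16, 17 and 15 in rising order. The rises numbered 10, 10, 15 and 16 in the same order. By the level of GRO at 30 min, the rises numbered 15, 4, 7 and 24 from the lowest to the highest group and the falls 30, 25, 14 and 19. Spots that rose therefore lay mainly at both ends of the range of active polymerase at 30 min, and spots that fell mainly in its lower part.

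On the array, the 139 spots were spread over 113 of the 384 blocks of 16 positions, with at most 4 in a block. Rows held from 3 to 17 of them, and row 13 held the most, 14 falls and 3 rises. The median change of all spots in a row ranged from -0.07 in row 13 to 0.24 in row 16. With the median of each block removed from every ratio, 154 spots were called, 60 upward and 94 downward, and 111 of them were among the 139 with the same direction. The part of array place in these counts was not tested further.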

How the data were processed

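Whole-ORF probes on nylon filters were hybridized by the authors to 33P-labelled samples, and phosphorimager scans were measured in ArrayVision. The authors deposited background-subtracted spot intensity, 1 value for each of 6144 spots per hybridization, with no scaling between hybridizations. Both ChIP fractions went through ligation-mediated PCR, and unequal amplification of fragments would enter the ratios. Neither the background rule nor the rDNA scaling of the study was used, for want of background values and spot annotation here. The number of arrays limits the precision.

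Here log2(IP/WCE) was taken within a replicate number, 0 as missing, and centred on the median. GRO ratios used the genomic DNA of the same filter. Changes from 0 to 60 min were tested across all spots with limma 3.58.1 in R 4.3.3 in 1 fit of 9 pairs, calling spots at a Benjamini-Hochberg adjusted p below 0.05. The difference between assays was tested on z-scores of 18 values. Tests were checked on simulated data. Figures were drawn with matplotlib 3.10.9 in Python 3.11.15. The 4 named spots are the 2 highest and 2 lowest changes among called spots with all values, no overlap and a WCE outside the dimmest 25%. The comparison, groups and tests were chosen with earlier results of these data known.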

Additional observations from a re-analysis of the deposited data

Results flagged for a closer look

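In a fit of both assays over all spots, the change from 0 to 60 min differed between RNAp ChIP and GRO at 30 of the spots whose occupancy changed, among them the named spot R9 - C17 : 8, where the difference was 2.46 on z-scores. All 30 had been picked on their occupancy change, which is one side of that difference, so they are a description and not a tested result, and on median-centred log2 ratios they numbered 9. The cause was not tested. Groups of 3 replicates are too small for a test of single outlying replicates.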

How the results depend on the processing

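With quantile normalization, array block medians removed or other rules for including spots, spots with a changed occupancy (139) numbered 135 to 161. The number stayed in that range with 10 added to the intensities, an intensity trend or a curve on WCE brightness removed. It was 81 with the pairs at 0 and 60 min alone, which leaves fewer pairs for the spread, 66 with the mean WCE and 303 with the times of the sample titles. It was 79 to 135 without 1 replicate. With the replicate number as a block it was 102, of which 95 were among the 139. The deviations of same-numbered replicates from the means of their times correlated at r = -0.12, 0.13 and -0.11 over spots, so the numbers were not taken as pairs. Those of differently numbered replicates ran from -0.15 to 0.20, the latter for replicate 3 at 0 min with replicate 1 at 60 min. Deviations from a mean of 3 values are tied to each other, so these values cannot settle which replicates belong together. Of the named spots, R15 - C8 : 8 changed by -0.39 under the titles. The number of spots with a changed IP (64) was 27 to 80 without 1 replicate, and for WCE (0) it was 0 to 1. Spots called in both assays numbered 43, 19 with the block and 8 to 43 without 1 replicate. The median GRO change at spots that rose (0.96) was 1.18 with the block, 1.18 with quantile normalization of GRO and 0.55 to 1.48 without 1 replicate. At spots that fell (-1.10) it was -0.80 without the dimmest 25% in either assay, -1.32 with the block and -1.32 to -1.05 without 1 replicate. Spots whose changes differed between assays (30) numbered 9 on log2 ratios, 18 with the block and 20 to 42 without 1 replicate. The cause was not tested, apart from the smaller number of pairs named above. The larger spread at dim spots limits what can be called, and replicate numbers not tied to an experiment limit what the p-values measure.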
